A study of Homo sapiens with 2 samples.

Results

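The androgen-induced genes outside the kallikrein family were taken as 35 named genes, each found once by its symbol among the 19607 genes of the expression table. They were chosen as genes that androgens raise in prostate cells, with the kallikreins and the lineage transcription factors left out. RNA was sequenced from 1 library of CWR22Rv1 cells with both AKT1 and AKT2 knocked out by CRISPR/Cas9 (Akt1/2 DKO) and 1 library of wild type CWR22Rv1 cells (control). CWR22Rv1 is a human prostate cancer line that grows without added androgen. The knockout cells were isolated as monoclonal cells after puromycin selection, and the labels do not say which clone was sequenced. Both kinds of cell are described as grown in serum-containing medium, and no hormone treatment is given for the sequenced cells. With 1 library a condition no difference has a replicate check, and an effect of the knockout cannot be told apart from a difference between 1 clone and the control cells.

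Steroid hormones enter the cell and act through proteins that leave an HSP90 chaperone complex, move to the nucleus and bind palindromic DNA elements, mostly in distal enhancers that factors such as FOXA1 open. The genes that androgens induce serve the secretory luminal cell of the prostate, in membrane transport, lipid and sugar metabolism, secretion and transcript elongation. PI3K/Akt signalling and androgen signalling influence each other in prostate cancer, and the comparison bears on whether androgen-regulated genes differ in cells without Akt1/2.

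The deposited table holds estimated reads per gene, in all 9970820 for control and 10718650 for Akt1/2 DKO, beside FPKM (fragments per kilobase of transcript, normalised for the size of the library). A fold change is the ratio of reads, Akt1/2 DKO to control, after scaling by edgeR's TMM method. Its 95% interval is exact (Clopper-Pearson) given the reads of both libraries and covers counting error only. A gene was called lower or higher when this ratio reached 1.5-fold. The targeted genes bear out the labels, with AKT1 at 2645 reads in control and 591 in Akt1/2 DKO (log2 fold change -2.31) and AKT2 at 2362 and 667 (-1.97). The luminal markers KRT8, KRT18, HOXB13, FOXA1, EPCAM and CDH1 all had reads in both libraries but moved both ways. EPCAM was 3.69-fold, KRT18 1.97-fold and KRT8 1.80-fold higher in Akt1/2 DKO, while HOXB13 was 3.03-fold and CDH1 1.77-fold lower. The marker lists of basal cells, fibroblasts, leukocytes and endothelium summed to 0.1 to 13.8 CPM (reads normalised to the library total) in control and 0 to 14.3 CPM in Akt1/2 DKO. The basal markers KRT5 and TP63 had 0 reads in both libraries. Of the neuroendocrine list, CHGA had 340 reads in control and 2 in Akt1/2 DKO, while ENO2 had 1404 and 3198. The part of these shifts in the results below was not tested.

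Reads of both libraries added up to 10 or more for 32 of the 35 genes. Of these, 14 (43.8%) were lower and 5 (15.6%) higher in the Akt1/2 DKO library, and 13 lay within 1.5-fold. LIFR and FKBP5, counted as lower, were not so in FPKM. Among all 13318 genes with that many reads, 15% were lower and 15.9% higher. The share of members lower was thus above that of all genes, whereas the share higher was close to it. The members were chosen with earlier results of these data known, so these shares describe the list only. The median log2 fold change of the 32 genes was -0.39, beside 0.0063 over all genes tested. By a 2-fold limit 11 members were lower and 1 higher, beside 7.94% and 10% of all genes. For 12 members the whole interval lay beyond 1.5-fold lower, and for 2 beyond 1.5-fold higher, beside 7.83% and 8.69% of all genes. Of the 31 members with at least 100 reads, 13 were lower and 5 higher, beside 11.9% and 11.3% of the 10956 genes at that depth. When replicates were assumed to vary by a coefficient of 0.4, edgeR's exact test with Benjamini-Hochberg adjustment, which compares these libraries and not the conditions, called DLX1 lower and 0 members higher, beside 1.17% and 2.01% of all genes.

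**Figure D1:**
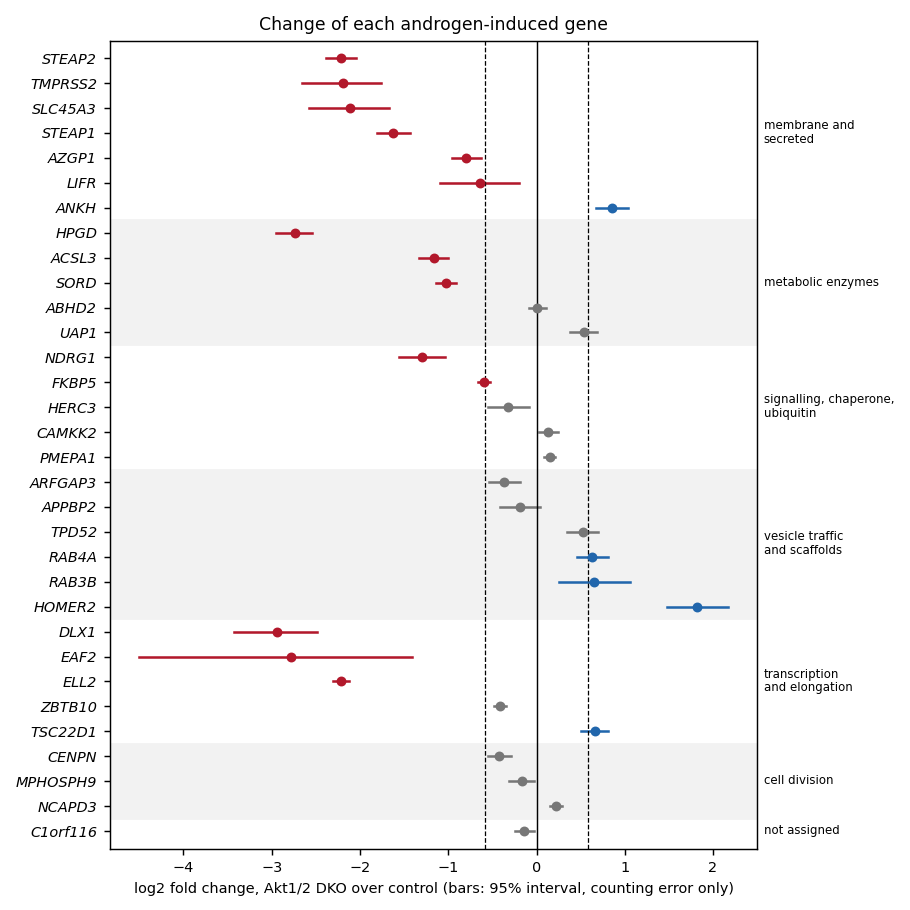
Log2 fold change of each of the 32 genes with at least 10 reads, Akt1/2 DKO over control, by role; bars are 95% intervals for counting error, dashed lines mark 1.5-fold, and red, blue and grey mark lower, higher and within. The 14 lower genes lie mostly among membrane and secreted proteins, metabolic enzymes, and transcription and elongation genes. Of the 5 higher genes, 3 are in vesicle traffic and scaffolds.

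The direction differed by role. Of 7 membrane and secreted proteins with enough reads, 6 were lower and 1 higher. Of 5 metabolic enzymes, 3 were lower, as were 3 of 5 transcription and elongation genes and 2 of 5 signalling, chaperone and ubiquitin genes. Of 6 genes of vesicle traffic and scaffolds, 0 were lower and 3 higher. All 3 cell division genes lay within 1.5-fold. These roles were assigned from general knowledge, and the groups are too small for more than a description.

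Among the membrane proteins, TMPRSS2, a transmembrane serine protease whose promoter drives ETS genes in the fusions of many prostate tumours, had 219 reads in control and 53 in Akt1/2 DKO. This was 4.58-fold lower (95% interval 3.38 to 6.31). SLC45A3, which encodes the prostate-enriched transporter prostein, had 203 and 52 reads and was 4.33-fold lower (3.18 to 5.99). TMPRSS2 lies on chromosome 21 from 41464551 to 41531116 and SLC45A3 on chromosome 1 from 205657851 to 205680459, in GENCODE release 29 (GRCh38). Both were low in level even in control, at 8.64 and 6.05 FPKM, and fell to 1.73 and 1.44 FPKM. The study designed quantitative PCR primers for both, which lie in the later exons of each transcript. The TMPRSS2 pair spans 171 bases from exon 12 to exon 13 of a transcript with 14 exons (chr21:41467772-41468451, minus strand), and the SLC45A3 pair spans 222 bases from exon 3 to exon 4 of one with 5 exons (chr1:205662013-205662940, minus strand). The primers are shown in lower case.
TMPRSS2 forward: tcacaccagccatgatctgt
TMPRSS2 reverse: cattcccgtacactcctggt
SLC45A3 forward: cactcatgaccttcacgctg
SLC45A3 reverse: tggccaaatagactgctcga

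STEAP1 and STEAP2 belong to a family of membrane metalloreductases, in which STEAP2 reduces iron and copper and STEAP1, a surface antigen of prostate cancer, lacks the cytoplasmic reductase part. They lie next to each other on chromosome 7, 2.76 kb apart. STEAP1 had 899 reads in control and 324 in Akt1/2 DKO, 3.08-fold lower (95% interval 2.71 to 3.50). STEAP2 had 1482 and 353 reads, 4.65-fold lower (4.14 to 5.24). The intervals do not overlap, so at this depth STEAP2 differed by more than STEAP1 between these libraries. The next gene was lower as well, since CFAP69, 7.04 kb beyond STEAP2, had 129 and 32 reads (log2 fold change -2.16). The expressed gene on the other side, SRI, lies 1930 kb from STEAP1 and had 347 and 507 reads (0.40). STEAP3, an endosomal ferrireductase of the same family, had 117 and 226 reads, 1.74-fold higher, and STEAP4 had 2 and 0, too few to compare.

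AZGP1, which encodes the secreted zinc-alpha-2-glycoprotein, had 797 reads in control and 509 in Akt1/2 DKO, 1.74-fold lower (95% interval 1.55 to 1.94). It was still among the more abundant members, at 57.6 and 33.5 FPKM. ANKH, a membrane protein that exports ATP and citrate and so supplies extracellular pyrophosphate, went the other way, from 397 to 795 reads, 1.81-fold higher (1.60 to 2.04). TRPM8, the cold and menthol channel, had 0 reads in both libraries, so no difference was detectable at this depth, where 3 reads, the limit that a count of 0 allows, are 0.301 CPM in control and 0.28 in Akt1/2 DKO.

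LIFR, the receptor subunit for leukemia inhibitory factor, depended on the unit. It had 104 reads in control and 74 in Akt1/2 DKO, 1.56-fold lower (95% interval 1.15 to 2.13), yet 1.35 and 1.95 FPKM, a log2 fold change of 0.53 in the other direction. Reads divided by FPKM and by the library total give the transcript length implied by the authors' scaling, and for LIFR this length in Akt1/2 DKO was 0.458 of that in control. Over the 32 members the ratio had a median of 1.0, and 25 of them lay within 10% of it. APPBP2 showed the same pattern, with a ratio of 0.709, 337 and 328 reads, and 5.18 and 6.61 FPKM. LIFR has 3 starts in RefSeq, and exons of LIFR-AS1 overlap it on the opposite strand. The files do not separate transcripts, and whether another start or transcript is used was not tested. Its partner chain IL6ST had 312 and 368 reads, a log2 fold change of 0.09 (-0.13 to 0.31).

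**Figure D2:**
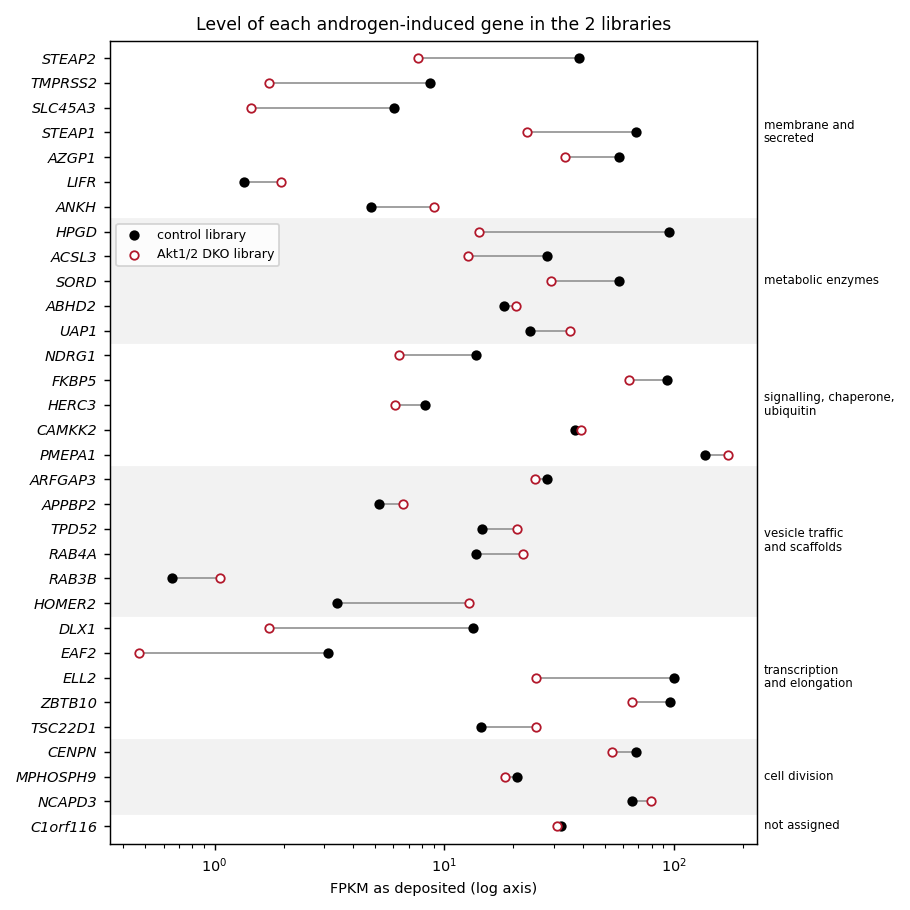
FPKM of each of the 32 genes in the control library (filled) and the Akt1/2 DKO library (open) on a log axis, grouped by role. Levels ran from 0.65 FPKM for RAB3B to 137 for PMEPA1 in control, and LIFR and APPBP2 are the genes whose FPKM moved against their reads.

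Among the metabolic enzymes, HPGD, which inactivates prostaglandins, had 1405 reads in control and 233 in Akt1/2 DKO, 6.69-fold lower (95% interval 5.82 to 7.71). In control it was the fourth most abundant member at 95 FPKM, and it fell to 14.1 FPKM. ACSL3, an acyl-CoA synthetase that activates long-chain fatty acids on lipid droplets, had 952 and 470 reads, 2.25-fold lower (2.01 to 2.51). SORD, which turns sorbitol into fructose, had 1749 and 951, 2.04-fold lower (1.88 to 2.21). UAP1, the enzyme that completes UDP-N-acetylglucosamine, had 552 and 885 reads, 1.45-fold higher (1.30 to 1.61) and so just under the limit. ABHD2, a serine hydrolase, had 1538 and 1717 reads, with a log2 fold change of 0.01 (-0.09 to 0.11). Its estimated counts, like those of RAB3B, CENPN and NCAPD3, are not whole in at least 1 library.

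Of the other long-chain acyl-CoA synthetases, the 3 with enough reads were higher, opposite to ACSL3, and ACSL5 had 1 read in each library. ACSL1 had 76 reads in control and 708 in Akt1/2 DKO, 8.40-fold higher (95% interval 6.63 to 10.8). ACSL4, which prefers arachidonate, had 4 and 101 reads, 22.8-fold higher (8.63 to 85.2), and ACSL6 had 99 and 169, 1.54-fold higher. The FPKM of ACSL4 were 0.45 and 3.03, a log2 fold change of 2.75 beside 4.51 in reads, with an implied length ratio of 3.49. In FPKM, ACSL3 was at 28.0 and 12.6 while ACSL1 was at 2.49 and 18.2, so that the order of these 2 enzymes turned over between the libraries.

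Among the signalling, chaperone and ubiquitin genes, NDRG1, a stress-responsive gene known as a suppressor of metastasis, had 390 reads in control and 176 in Akt1/2 DKO, 2.46-fold lower (95% interval 2.05 to 2.95). FKBP5, an HSP90 co-chaperone and a standard reporter of steroid receptor activity, had 3554 and 2608 reads, 1.51-fold lower (1.44 to 1.59). It sat at the limit itself. HERC3, a HECT-type ubiquitin ligase, had 322 and 286 reads, with a log2 fold change of -0.32 (-0.55 to -0.09). CAMKK2, a kinase upstream of AMPK, had 1281 and 1556 (0.13, 0.02 to 0.24). PMEPA1, an inhibitor of TGF-beta signalling, was the most abundant member in both libraries, with 3994 and 4911 reads and 137 and 172 FPKM (0.15, 0.09 to 0.21). The last 3 genes thus differed by less than 1.5-fold, with intervals that exclude a change of that size.

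Of the genes of vesicle traffic and scaffolds, HOMER2, a scaffold of the postsynaptic Homer family, had 91 reads in control and 356 in Akt1/2 DKO, 3.53-fold higher (95% interval 2.80 to 4.49). It was the largest rise among the members. RAB4A, a GTPase of recycling endosomes, had 409 and 702 reads, 1.55-fold higher (1.37 to 1.75), and RAB3B, a GTPase of regulated exocytosis, 84 and 146, 1.57-fold higher (1.19 to 2.08). TPD52, which is often overexpressed in prostate tumours, had 433 and 689 reads, 1.44-fold higher (1.27 to 1.62). ARFGAP3, which acts on ARF1 at the Golgi, had 587 and 505 (log2 fold change -0.37, -0.54 to -0.19), and APPBP2, whose product binds the tail of the amyloid precursor protein, -0.19 (-0.41 to 0.04). IQGAP2, a scaffold of the IQGAP family, had 3 and 5 reads, too few to describe. The paralogs HOMER1 (193 and 137 reads, 1.56-fold lower) and RAB4B (126 and 80, 1.75-fold lower) moved opposite to HOMER2 and RAB4A. RAB3C had 8 and 152 reads, 17.1-fold higher (8.48 to 40.4), and TPD52L1 195 and 534, 2.47-fold higher (2.09 to 2.93).

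Among the transcription and elongation genes, DLX1, a homeobox gene used as a urine marker of prostate cancer, had 305 reads in control and 44 in Akt1/2 DKO, 7.69-fold lower (95% interval 5.59 to 10.8). It lies on chromosome 2 from 172084740 to 172089677. DLX2, its paralog 9.76 kb away, had 86 and 15 reads, 6.36-fold lower (3.65 to 11.8), while METAP1D, 2.31 kb away on the other side, had 147 and 135 (log2 fold change -0.27, -0.62 to 0.08). The neighbouring homeobox genes were thus lower together and the gene beside them was not called. The primers with which the study assayed DLX1 enclose 184 bases within exon 3, the last exon (chr2:172089015-172089198, plus strand).
DLX1 forward: tggagagtttggagccgaat
DLX1 reverse: cgctccctctttctacccaa

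ELL2, a subunit of the super elongation complex that keeps RNA polymerase II moving, was the most read of the lower members, with 5344 reads in control and 1278 in Akt1/2 DKO, 4.64-fold lower (95% interval 4.36 to 4.93). EAF2, which binds and stimulates ELL proteins, had 31 and 5 reads, 6.87-fold lower (2.65 to 22.6). The wide interval reflects its depth. Their paralogs were not called lower, since ELL had 251 and 221 reads (log2 fold change -0.33, -0.60 to -0.07), EAF1 845 and 774 (-0.28, -0.42 to -0.13), and ELL3 100 and 267, 2.41-fold higher (1.91 to 3.06). EAF2 lies on chromosome 3, whose 754 tested genes had a median of -0.54, and its log2 fold change of -2.78 was -2.24 after that median was subtracted.

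TSC22D1, a leucine zipper gene that TGF-beta induces, had 561 reads in control and 981 in Akt1/2 DKO, 1.58-fold higher (95% interval 1.42 to 1.75). ZBTB10, a zinc finger repressor, had 3797 and 3169, 1.33-fold lower (1.27 to 1.39). MAF, a basic leucine zipper factor, had 0 and 1 reads. No fold is given for it. Its relative MAFF had 48 and 173 reads, 3.25-fold higher (2.35 to 4.57).

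The cell division genes differed little. NCAPD3, a subunit of condensin II, had 3125 reads in control and 4030 in Akt1/2 DKO, with a log2 fold change of 0.22 (95% interval 0.15 to 0.29). CENPN, which recognises the CENP-A nucleosome at centromeres, had 1120 and 927 (-0.42, -0.55 to -0.29), and MPHOSPH9, a centriole protein, 805 and 794 (-0.17, -0.31 to -0.03). A list of 21 other cell division genes had a median of -0.08, with 2 lower (CENPA and CENPF) and 0 higher. The members of this kind thus moved about as little as that list. C1orf116, also known as SARG for its regulation by androgen, had 1341 and 1352 reads (-0.14, -0.25 to -0.03).

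**Figure D3:**
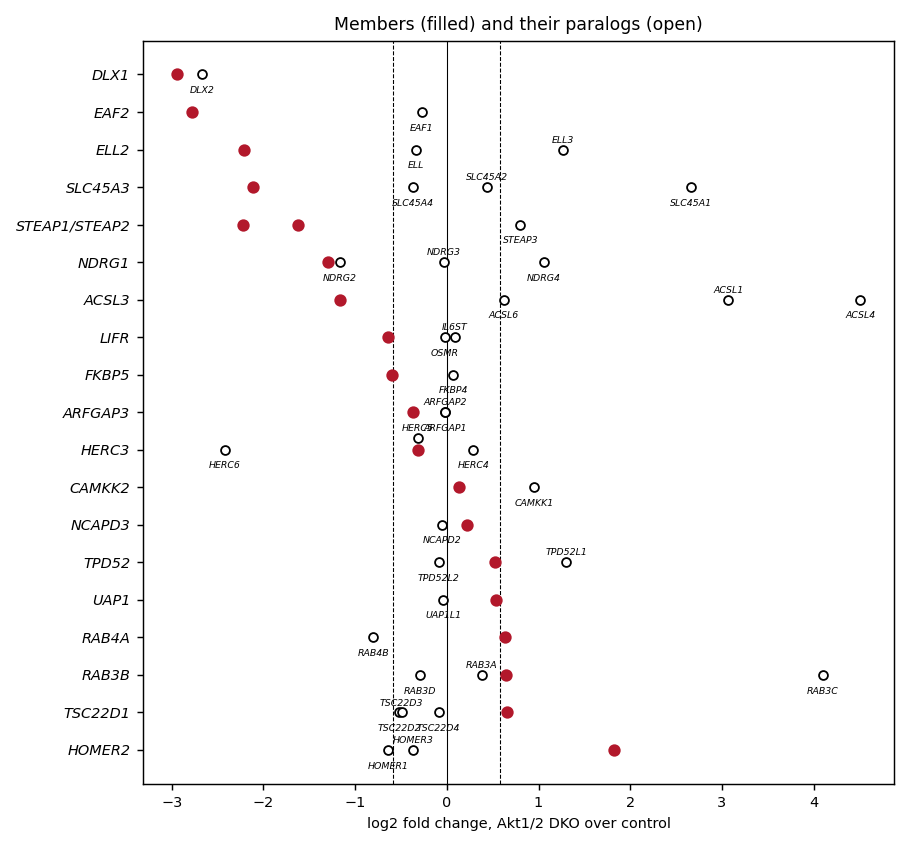
Log2 fold change of members with at least 10 reads (filled) and of their paralogs with at least 10 reads (open), 1 gene family a row; dashed lines mark 1.5-fold and an open point is raised where it would hide a member. DLX1 and DLX2, and NDRG1 and NDRG2, were lower together, and ACSL3, ELL2, SLC45A3, HOMER2 and RAB4A had paralogs on the other side.

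The paralogs as a set, 44 of 47 with enough reads, had a median log2 fold change of -0.02, with 6 lower (13.6%) and 12 higher (27.3%). NDRG2 was one of the few that followed its relative, with 203 and 100 reads, 2.25-fold lower (95% interval 1.76 to 2.89), beside NDRG4 with 128 and 295, 2.08-fold higher (1.68 to 2.58). SLC45A1 had 7 and 49 reads, 6.31-fold higher (2.84 to 16.5), and CAMKK1 93 and 199, 1.93-fold higher (1.5 to 2.5). FKBP4, the other large FKBP co-chaperone of steroid receptors, had 6491 and 7557 reads (log2 fold change 0.07, 0.02 to 0.12), unlike FKBP5.

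The 14 lower members lie on 10 chromosomes. The medians of the chromosomes that hold members ran from -0.54 to 0.10. Their nearest expressed genes on either side, 26 in all when other lower members are left out, had a median log2 fold change of -0.03, with 7 lower and 2 higher. The 7 are a larger share than the 15% of all genes with at least 10 reads that were lower. Among genes with at least 100 reads 11.9% were lower, and a neighbour had to have at least 50 reads. MX1, 5.34 kb from TMPRSS2, had 15 and 76 reads and was higher (2.19), and ELK4 and NUCKS1 beside SLC45A3 had log2 fold changes of 0.54 and 0.08. Next to HPGD, CEP44 had 0.07 whereas GPM6A, 1110 kb away, was lower (189 and 17 reads, -3.62). Next to ELL2, GLRX was lower (84 and 4 reads, -4.54) and CAST higher (797 and 1440, 0.70). Beside NDRG1, PHF20L1 had 659 and 501 reads (-0.54) and ST3GAL1 3973 and 2114 (-1.06). NDRG1 itself stood at -1.10 after the chromosome 8 median of -0.20 was subtracted.

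**Figure D4:**
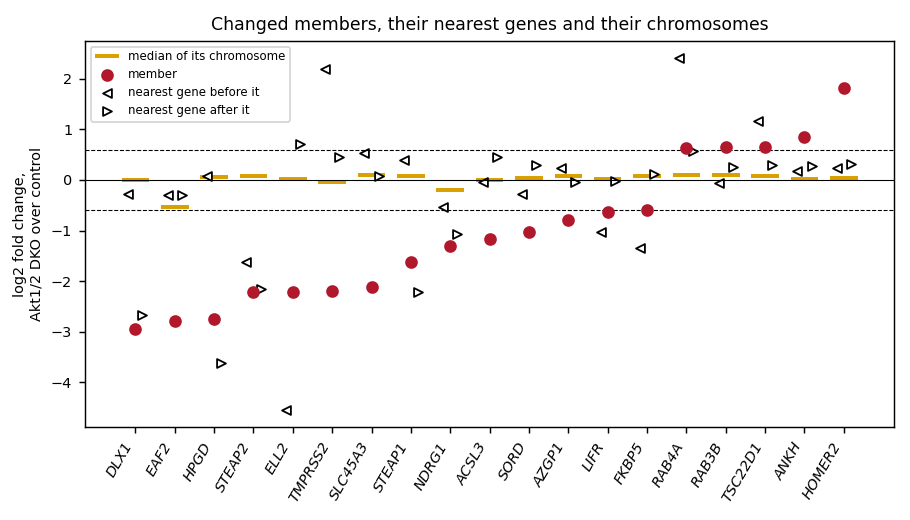
Log2 fold change of the 19 members past 1.5-fold (filled circles), of the nearest gene on each side with at least 50 reads (open triangles) and the median of all tested genes of the chromosome (bars); dashed lines mark 1.5-fold. STEAP1, STEAP2, DLX1 and NDRG1 each had a neighbour at least 1.5-fold lower, as did LIFR, HPGD, FKBP5 and ELL2, while both neighbours of TMPRSS2, SLC45A3, AZGP1, ACSL3, SORD and EAF2 lay within 1.5-fold or higher.

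Promoter sequence was compared because the members share a hormone. RefSeq (GRCh38.p14) gave windows from 250 bases before to 50 after the start for 29 of the 35 genes, 53 windows in all. The search was for AGAACA, the hexamer of steroid response elements, on either strand as AGAACA or TGTTCT, for its palindrome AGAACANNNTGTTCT, in which the hexamer also counts, and for the forkhead motif GTAAACA or TGTTTAC. The hexamer stood in 7 of 53 windows (13.2%), beside 14.8% of all 35116 windows, and the palindrome in 0, beside 0.00285%. The forkhead motif stood in 2 windows (3.77%), beside 3.42%. The members' windows thus held these letters about as often as any promoter. Of the 10 lower members with a window, 2 held the hexamer (FKBP5 and LIFR) and 2 the forkhead motif (STEAP2 and LIFR). Of the other 19 members, 4 held the hexamer and 0 the forkhead motif. These 19 include TRPM8 and IQGAP2, which hold the hexamer, and MAF, each with too few reads to be called. These counts are per gene, whereas the shares of all promoters are per window. A match is only a match of letters in this window, and binding to DNA was not measured.

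The 3 lower members with a match are shown with the steepest fall, DLX1, the transporter SLC45A3 and the largest rise, HOMER2, which have none. Capitals mark the hexamer or the forkhead motif, and each window reads in the direction of the gene. They are FKBP5 at its upstream start (chr6:35728534-35728833, minus strand), LIFR at the second of its 3 starts (chr5:38557418-38557717, minus), STEAP2 at the downstream of its 2 starts (chr7:90213570-90213869, plus), DLX1 (chr2:172085257-172085556, plus), SLC45A3 (chr1:205680460-205680759, minus) and HOMER2 (chr15:82952671-82952970, minus).
FKBP5: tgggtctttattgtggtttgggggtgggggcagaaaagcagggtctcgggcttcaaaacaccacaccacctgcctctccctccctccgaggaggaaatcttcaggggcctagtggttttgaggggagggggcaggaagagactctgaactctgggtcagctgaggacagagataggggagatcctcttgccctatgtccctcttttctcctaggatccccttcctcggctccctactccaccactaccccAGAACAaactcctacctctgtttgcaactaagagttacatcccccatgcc
LIFR: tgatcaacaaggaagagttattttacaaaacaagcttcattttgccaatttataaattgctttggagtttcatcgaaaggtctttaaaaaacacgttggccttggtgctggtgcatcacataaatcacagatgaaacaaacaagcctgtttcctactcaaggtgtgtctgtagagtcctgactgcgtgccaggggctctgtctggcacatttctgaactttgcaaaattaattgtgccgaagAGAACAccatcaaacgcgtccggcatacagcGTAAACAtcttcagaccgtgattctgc
STEAP2: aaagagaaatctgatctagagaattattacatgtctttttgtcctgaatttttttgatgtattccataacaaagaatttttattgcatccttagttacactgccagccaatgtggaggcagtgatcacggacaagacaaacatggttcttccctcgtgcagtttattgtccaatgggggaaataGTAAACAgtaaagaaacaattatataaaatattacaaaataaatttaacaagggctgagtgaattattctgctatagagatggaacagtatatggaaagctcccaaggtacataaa
DLX1: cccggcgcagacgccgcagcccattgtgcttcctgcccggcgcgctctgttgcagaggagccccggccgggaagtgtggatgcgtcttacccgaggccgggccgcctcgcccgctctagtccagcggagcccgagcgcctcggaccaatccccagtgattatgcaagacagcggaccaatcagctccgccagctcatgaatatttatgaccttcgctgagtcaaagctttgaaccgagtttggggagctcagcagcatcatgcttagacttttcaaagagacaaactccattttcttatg
SLC45A3: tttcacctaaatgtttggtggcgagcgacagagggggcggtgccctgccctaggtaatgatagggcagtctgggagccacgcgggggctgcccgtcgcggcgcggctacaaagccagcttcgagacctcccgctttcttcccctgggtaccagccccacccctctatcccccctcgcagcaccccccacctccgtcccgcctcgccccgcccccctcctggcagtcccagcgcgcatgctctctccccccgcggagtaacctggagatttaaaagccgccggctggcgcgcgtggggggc
HOMER2: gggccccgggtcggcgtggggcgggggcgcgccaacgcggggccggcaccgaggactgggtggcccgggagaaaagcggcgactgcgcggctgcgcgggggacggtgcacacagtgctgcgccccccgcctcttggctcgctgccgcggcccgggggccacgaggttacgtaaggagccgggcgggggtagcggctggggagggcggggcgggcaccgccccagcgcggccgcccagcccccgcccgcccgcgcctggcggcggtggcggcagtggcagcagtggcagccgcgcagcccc

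In FKBP5 the hexamer AGAACA begins at the annotated start itself. In LIFR it begins 8 bases before the start and the forkhead motif 23 bases after it, and in STEAP2 the forkhead motif begins 66 bases before. The DLX1, SLC45A3 and HOMER2 windows hold neither, so that genes on both sides of the comparison lacked these letters.

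Steroid receptors and cofactors moved both ways. FOXA1, the factor that opens enhancers, had 2511 reads in control and 3289 in Akt1/2 DKO, a log2 fold change of 0.24 (95% interval 0.17 to 0.32). HOXB13, a homeobox factor of the prostate lineage, was 3.03-fold lower (2363 and 865 reads), and the coactivator NCOA2 2.13-fold lower (843 and 439). HSP90AA1, the inducible cytosolic HSP90, was 1.64-fold lower, beside -0.13 for HSP90AB1 on the log2 scale. The glucocorticoid receptor NR3C1 (57 and 373 reads, 5.90-fold higher) and the mineralocorticoid receptor NR3C2 (31 and 189, 5.50-fold higher), which bind the same hexamer, were higher, and PGR had 0 reads in both. The 18 receptors and cofactors with enough reads had a median of -0.06.

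A longer list of 68 other androgen-response genes was written from general knowledge. Like the members, it was chosen with earlier results of these data known. It did not share the members' direction. Of 67 with enough reads, 10 (14.9%) were lower and 18 (26.9%) higher, around a median of 0.08 on the log2 scale. Among those with at least 100 reads, KRT19 (1966 and 166 reads, 13.1-fold lower), PLPP1 (888 and 155, 6.35-fold lower) and LMAN1 (609 and 109, 6.19-fold lower) differed most downward. CDK6 (7 and 406 reads, 52.3-fold higher, 95% interval 25.2 to 131), AKAP12 (121 and 1078, 8.04-fold higher) and STK39 (48 and 297, 5.58-fold higher) differed most upward. The lower calls thus stood at the share of all genes in this list and above it among the members. The part that the choice of genes for each list had in this contrast was not tested.

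Genes that androgens repress were not higher as a set. Of 8 such genes with enough reads, 4 were lower and 1 higher. UGT2B15, which glucuronidates androgens, had 621 and 6 reads (115-fold lower, 95% interval 52.4 to 314), the dopa decarboxylase DDC 267 and 10 (29.6-fold lower), and BCHE, butyrylcholinesterase, 1598 and 206 (8.60-fold lower). UGT2B17, which can share reads with UGT2B15, went from 12 reads to 0. This was 4.43-fold lower when 0 is set to 3 reads, with a 95% interval from 3.08-fold lower upward. CCN3 had 31 and 68 reads, 1.98-fold higher (1.28 to 3.13), and FOLH1, which encodes PSMA, 1374 and 1309 (log2 fold change -0.22). Lower induced genes and lower repressed genes thus stood side by side in these libraries.

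**Figure D5:**
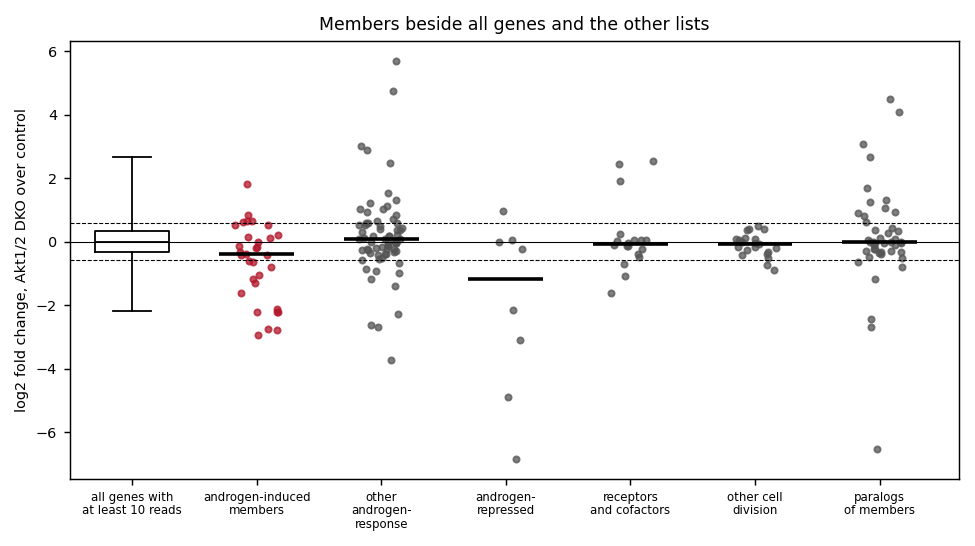
Log2 fold change, Akt1/2 DKO over control, for all 13318 genes with at least 10 reads (box with quartiles, whiskers to the central 95%), the 32 members and the other lists (1 point a gene, bar at the median, points spread sideways at random); dashed lines mark 1.5-fold. The members' median of -0.39 lay below that of all genes, and the other androgen-response genes centred at 0.08.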

How the data were processed

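RNA-seq was analysed from 1 Akt1/2 DKO and 1 control library of CWR22Rv1 cells. Total RNA was extracted with TRIzol. The submitters' processing notes name fastp 0.20.0, TopHat, Cufflinks, edgeR and GRCh38.p10, without roles, and strandedness is not given in the sources used here. Exons of 17 members overlap another gene. For 13 members such a gene lies on the opposite strand, among them LIFR, PMEPA1, ELL2, SORD, ACSL3 and NCAPD3. As strandedness is not given, the reads of these members may include reads of their partners. RAB4A (with SPHAR), ARFGAP3, HERC3, TPD52 and MPHOSPH9 overlap a gene on the same strand, which strand alone cannot separate.

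The authors deposited estimated counts per gene, of which 90.6% were whole in control and 90.8% in Akt1/2 DKO, and these were rounded. The authors also deposited FPKM with 2 decimals. Their columns of log2 fold changes, p-values and FDR, their table of changed genes, their ontology summary and their correlation were not used.

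Genes were kept when their reads summed to 10 or more over the 2 libraries. Folds were scaled by TMM (edgeR 4.0.16 in R 4.3.3). The 95% Clopper-Pearson intervals (scipy 1.17.1) cover counting error only, and 3 reads were taken as the floor. Scripts were tested on simulated data. Alternatives were total counts, upper-quartile and DESeq2 1.42.0 scaling, FPKM, centring on each chromosome's median, other read minimums and limits, and edgeR's exact test with a coefficient of variation of 0.4 (adjusted p threshold 0.05). Positions come from GENCODE release 29, which held 19571 of the 19607 gene IDs.

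The members and lists were chosen with earlier results of these data known. All 35 members were named, with their paralogs, the neighbouring genes on each side with at least 50 reads, AKT1 and AKT2, and the genes of other lists with at least 100 reads that differed most. Results on some genes of these lists are not reported here.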

Additional observations from a re-analysis of the deposited data

How the results depend on the processing

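The number of members lower in Akt1/2 DKO was 11 to 14 under the other scalings, FPKM, chromosome centring, read minimums, the 2-fold limit and the interval rule, and the median log2 fold change stayed between -0.39 and -0.27 where it was recomputed. With an assumed coefficient of variation of 0.4 the count was 1 lower and 0 higher. The number higher was 1 by the 2-fold limit, 2 when the whole interval had to lie beyond 1.5-fold, and 3 after each chromosome's median was subtracted, where RAB3B (0.54), RAB4A (0.53) and TSC22D1 (0.58) dropped under the limit and TPD52 (0.72) passed it. It was 5 or 6 otherwise. FKBP5 dropped under the limit with total counts (-0.55), upper-quartile scaling (-0.54) and FPKM (-0.56). LIFR turned to 0.53 in FPKM, where the implied transcript length differed between the libraries. No member changed direction under the 3 other scalings. Depth limits EAF2, IQGAP2, MAF and TRPM8. No paired analysis was possible because there is 1 library of each genotype.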

Other observations

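TMPRSS2, SLC45A3, NDRG1 and ACSL3, all lower in the Akt1/2 DKO library, are known as upstream partners in ETS fusion genes in prostate cancer. The ETS genes were therefore looked up, and they were chosen after the members' values were seen. ERG had 0 reads in both libraries. ETV1 had 100 reads in control and 341 in Akt1/2 DKO, 3.08-fold higher (95% interval 2.45 to 3.88). Its FPKM were 4.21 and 9.86, a log2 fold change of 1.23 beside 1.62 in reads. ETV4 had 283 and 275 reads and ETV5 295 and 320, with log2 fold changes of -0.19 and -0.03. ELK4, which lies beside SLC45A3, had 478 and 771 reads (0.54) but 9.97 and 9.44 FPKM, so that its direction depended on the unit as it did for LIFR. Fusion transcripts were not analysed here.

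Among the members, those lower in Akt1/2 DKO had a median of 33.3 FPKM in control and the others 19.4. The control level also enters the ratio that calls a member lower, so this contrast is not independent of the call. The neighbouring genes of the 5 higher members, 10 in all, had a median log2 fold change of 0.28, with 0 lower and 2 higher. The 2 were RHOU beside RAB4A (216 and 1269 reads) and ENOX1 beside TSC22D1 (68 and 169). Over all genes with at least 10 reads, 15% were lower and 15.9% higher, and with at least 100 reads 11.9% and 11.3%. These neighbours had at least 50 reads and are too few for more than a description.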
